A study of Mus musculus with 4 samples.

Results

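Translation initiation and elongation factors were followed here in mouse CD4+ T cells lacking the kinases MEKK2 and MEKK3. The genes were taken by symbol from the platform annotation, as those whose name begins with Eif1 to Eif6, Eef1 or Eef2, leaving out Eif2s3x, Eif2s3y and Eif2ak2. This gave 60 genes with 121 probes, of 19057 named genes and 45281 probes on the array. A gene was represented by its probe of highest mean over the 4 arrays. Of the 60 genes, 47 had a probe above the intensity floor of 16 on at least 1 array and were tested, 44 of them on all 4 arrays. The other 13 genes were at the floor on every array, with highest intensities between 1.75 and 15.5, and among them is the pseudogene Eif2s3x-ps1. No difference is given for those 13. Eif1, Eif2s1, Eif3g and Eif4g1 have no probe of that name in the annotation used.

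Protein synthesis starts when the small ribosomal subunit, loaded with initiator methionyl-tRNA by eIF2, is brought to the capped end of an mRNA by eIF3 and the cap complex eIF4F and scans to a start codon. Phosphorylation of eIF2 lowers global initiation by blocking its exchange factor eIF2B, and the 4E-binding proteins hold the cap-binding protein eIF4E until the kinase mTORC1 phosphorylates them. Elongation then needs eEF1A, which delivers aminoacyl-tRNA, its exchange factor eEF1B, the translocase eEF2 and eIF5A, which relieves stalled ribosomes. Activated T cells raise their translation capacity quickly, while resting memory cells keep it low.

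The arrays were Illumina bead arrays of total RNA from CD4+ CD62L- CD44+ T cells, sorted from spleen and lymph nodes. Both groups were C57BL/6. The 2 dKO arrays came from mice with a knockout of MEKK2 and with MEKK3F/-, in which Lck-Cre removes MEKK3 in cells of the T lineage, and the 2 WT arrays came from wild-type mice. Each group has the replicate numbers 1 and 2, and neither age nor sex of the mice is given in the labels. Whether the arrays of 1 group stem from different mice is not stated, so p-values measure the spread between arrays, which may be technical. Values are deposited intensities on a linear scale. Within a number the deposited dKO and WT intensities share 1 distribution, while number 2 runs higher than number 1, so deposited intensities are read within a number. They are given below for number 1 and then number 2. Differences, and statements on overlap between the groups, refer to log2 intensities quantile normalized over the 4 arrays, and differences are dKO minus WT.

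Other features of the arrays differed with genotype. Map3k3, the gene of MEKK3, had an intensity of 204 then 246 in dKO and 311 then 387 in WT, and it is not known whether that probe falls inside the deletion. Both Map3k2 probes were at the floor. Xist exceeded the floor on the WT arrays alone and the Y-linked Eif2s3y on the dKO arrays alone, so sex and genotype cannot be told apart. Of 9 T cell markers, 7 had a probe and 6 exceeded the floor, Cd3d, Cd3e, Cd3g, Cd4, Cd2 and Cd44, while Cd5 did not. Of the 6, 1 was consistently lower in dKO, the sort marker Cd44 (−0.47 in number 1 and −0.36 in number 2). The sum over the T cell markers with a probe was 12936 then 15667 in dKO and 11797 then 18361 in WT. Of 8 erythroid markers, 5 had a probe and 3, the globins, were consistently higher in dKO by the rule below and were called by limma with the replicate block. The erythroid sum was 819 then 4224 in dKO and 65.4 then 142 in WT, with Alas2 at the floor. Of 8 tested myeloid markers, 4 were consistently higher, and the sum over all with a probe was 682 then 2239 in dKO and 776 then 882 in WT, with Itgam at the floor. Of 5 tested CD8 and NK markers, 4 were consistently lower, and the sum over all with a probe was 1503 then 2436 in dKO and 2560 then 2969 in WT, with Cd8a, Ncr1 and Gzmb at the floor. Of 3 tested B cell markers 0 were consistent, and of 7 tested cycling markers 1 was consistently higher. The B cell sum over all with a probe was 82.2 then 378 in dKO and 160 then 179 in WT, with Ms4a1 at the floor. It was thus lower in dKO in number 1 and higher in number 2. The cycling sum was 1132 then 2322 in dKO and 1250 then 1958 in WT, with Ccna2 at the floor. By the same rule 9.35% of all features were consistently higher and 8.60% lower. The part of sex and of these cells in the values below was not tested. In bulk RNA fewer cells of a type and less RNA per cell cannot be told apart.

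None of the 47 tested genes passed in limma. The genes of this family were spread around 0, with most differences small. Eif4e3, a cap-binding relative of eIF4E, had the highest difference and Eif3b, the scaffold subunit of eIF3, the lowest. Over the 8 role groups the lowest median was −0.26, for the elongation factors. The highest was 0.25, for the eIF4E inhibitors and transport genes, of which 3 were tested. The median of the enzymes that modify elongation factors was 0.17. The fit with genotype alone called 0 members higher and 0 lower, with an adjusted p of 0.9997 for each of the 47, and 0 had an unadjusted p under 0.05. Over all 10413 features 0% were called in either direction by that fit, and 1.75% higher and 1.68% lower had an unadjusted p under 0.05. With the replicate number as a block, 0 members were called (smallest adjusted p = 0.338), where 0.0960% of features were called higher and 0.0480% lower. By unadjusted p under 0.05 in that fit 3 members were higher and 4 lower, 6.38% and 8.51% of the 47, against 6.13% and 5.38% of all features. No member differed by 2-fold over the 4 arrays, and the differences ran from −0.73 to 0.84. The median difference of the members was 0.017 beside 0.011 for all features.

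With 2 arrays a group, a descriptive rule was used as well. A gene is called consistent here when its dKO minus WT difference had the same sign in both replicate numbers and was at least 0.25 on the log2 scale in each. Consistently higher were 4 members (8.51%), Eif4e3, Eif4ebp1, Eef1akmt1 and Eif3k, beside 9.35% of all features. Consistently lower were 5 (10.6%), Eif3b, Eif4b, Eef2, Eif5a and Eef1g, beside 8.60% of all features. These counts rest on the brightest probe, and for Eif4b the other probe was higher in both numbers. With the mean of the probes of each gene, 3 members were consistently higher and 4 lower. The groups did not overlap on the normalized scale for 5 members higher in dKO (10.6%) and 4 lower (8.51%), beside 12.7% and 13.5% of all features. The sign was the same in both numbers for 13 members higher in dKO (27.7%) and 14 lower (29.8%), beside 27.6% and 26.6% of all features. These shares are near those of the whole array. Across the 47 members the differences of the 2 replicate numbers correlated with r = 0.42, beside 0.25 over all features, as a description across genes that share arrays.

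**Figure D1:**
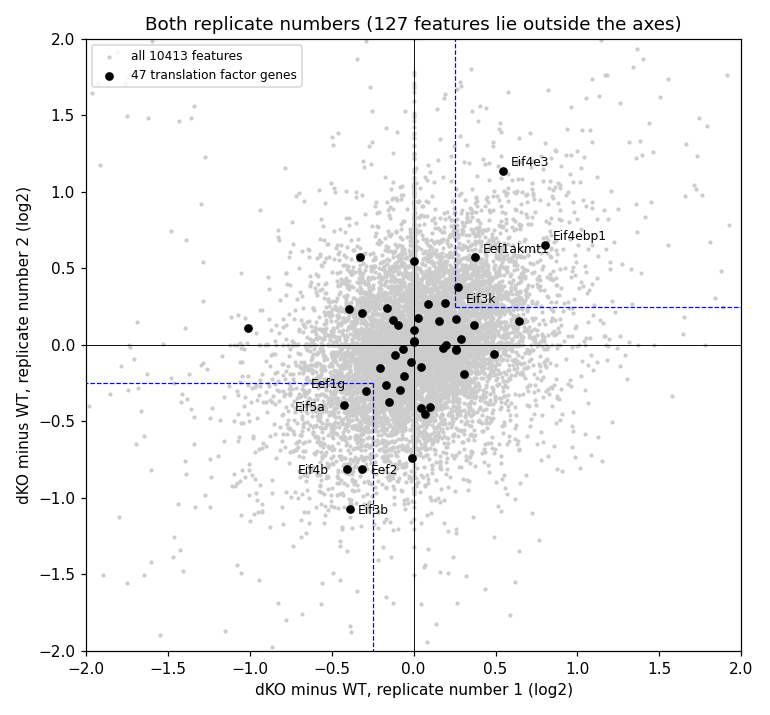
Each point is a feature, with its dKO minus WT log2 difference in replicate number 1 on the horizontal axis and in number 2 on the vertical axis. Grey points are all 10413 features (127 lie outside the axes), black points the 47 translation factor genes, and dashed lines bound the 2 regions where both differences are at least 0.25. The 9 named genes lie in those regions, within the cloud of all features.

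Of 7 elongation factor genes tested, 3 were consistently lower in dKO (42.9%) and 0 consistently higher, beside 8.60% and 9.35% of all features. The 7 include Eef1e1, which by function is no elongation factor. Their median difference was −0.26 (−0.32 in number 1 and −0.30 in number 2). This is a description of 7 genes in a group chosen with earlier results of these data known, and none passed a test. Eef2, the GTPase that moves the ribosome along the mRNA (chromosome 10, 81176631 to 81182509, GRCm38.p6), had an intensity of 997 then 699 in dKO and 1245 then 1237 in WT. The dKO value lay below the WT value within each number, and the normalized values of the groups overlapped, at 9.72 ± 0.70 for dKO against 10.29 ± 0.35 for WT (SD, n = 2 per group). Its difference was −0.56, with −0.32 in number 1 and −0.81 in number 2 (limma with the replicate block, adjusted p = 0.352). The difference was −0.071 without dKO 2 and −1.07 without dKO 1. The 2 other probes of Eef2 gave −0.28 in number 1 and −0.97 in number 2, and −0.31 in number 1 and −0.78 in number 2.

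Eif5a, the hypusine-bearing factor (chromosome 11, 69916712 to 69921958), had an intensity of 489.8 then 848 in dKO and 659 then 1119 in WT. It was lower in dKO within each number, and on the normalized scale the groups did not overlap, at 9.33 ± 0.24 for dKO against 9.74 ± 0.21 for WT (SD, n = 2 per group). The difference was −0.41, with −0.43 in number 1 and −0.40 in number 2 (limma with the replicate block, adjusted p = 0.357), and its 2 other probes gave −0.40 in number 1 and −0.52 in number 2, and −0.66 in number 1 and −0.38 in number 2. With an array left out the difference of Eif5a ran from −0.58 to −0.24. All 3 probes of both Eef2 and Eif5a were therefore lower in dKO in each number. Eef1g, the gamma subunit of eEF1B (chromosome 19, 8967041 to 8978180), had 1 probe with an intensity of 2727 then 4935 in dKO and 3334 then 6128 in WT. It differed by −0.29 in number 1 and −0.30 in number 2, although the groups as a whole overlapped on the normalized scale (limma with the replicate block, adjusted p = 0.471). With an array left out it ran from −0.46 to −0.14.

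The remaining elongation genes did not follow this pattern in both numbers. Eef1d, the delta subunit of eEF1B, stood at 1639.6 then 2694 in dKO and 1822 then 3504 in WT, with differences of −0.15 and −0.37, the first short of the rule. Eef1b2, the catalytic subunit eEF1B alpha, differed by −0.32 in number 1 and 0.21 in number 2 on its brightest probe. Its other probes disagreed, with −0.68 in number 1 and −0.19 in number 2, and −0.0056 in number 1 and 0.44 in number 2. Eef1e1, which sits in the multisynthetase complex, differed by −0.33 in number 1 and 0.58 in number 2. Eef1a1, the main carrier of aminoacyl-tRNA (chromosome 9, 78478453 to 78481724), had an intensity of 12779 then 16364 in dKO and 12344 then 18350.0 in WT. Its groups overlapped, with a difference of −0.050 and a 95% interval of −0.46 to 0.36 in the blocked limma fit. The highest intensity of any probe was 13255 in number 1 and 20233 in number 2, so the Eef1a1 probe lies near the top of the scale. Its paralogue Eef1a2, the muscle and neuron form, was at the floor on all arrays, as was Eif5a2, the paralogue of Eif5a.

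**Figure D2:**
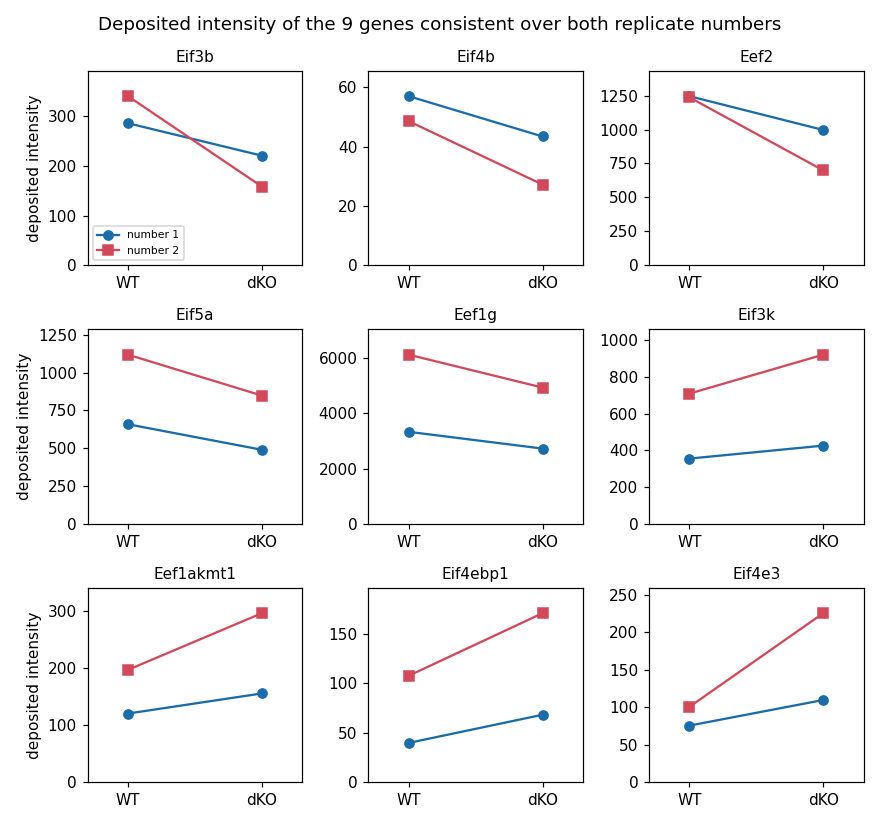
Deposited intensity (linear scale, from 0) of the 9 consistent genes on the WT and dKO arrays, with 1 line for each replicate number joining the WT and the dKO array. The lines of Eif3b, Eif4b, Eef2, Eif5a and Eef1g run down from WT to dKO in both numbers and those of Eif3k, Eef1akmt1, Eif4ebp1 and Eif4e3 run up.

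Among the enzymes that modify elongation factors, the brightest probes of 3 of the 4 tested were higher in dKO in both numbers (75%, beside 27.6% of all features). Of 5 genes on the array, 4 were tested, with a median difference of 0.17. Of the 4, 1 was consistently higher (25%, beside 9.35% of all features) and 0 lower. Eef1akmt1, a lysine methyltransferase of eEF1A (chromosome 14, 57549595 to 57571582), had an intensity of 155 then 296 in dKO and 120.3 then 197 in WT. It was higher in dKO in each number, by 0.38 and 0.57, without overlap on the normalized scale (limma with the replicate block, adjusted p = 0.391). The gap between the groups was narrow, with dKO 1 at 7.451 and WT 2 at 7.448 after normalization. The difference of Eef1akmt1 was 0.19 without dKO 2 and 0.77 without dKO 1. Eef2kmt, which methylates eEF2, stood at 62.9 then 79.6 in dKO and 59.2 then 65.9 in WT. Eef1aknmt, which methylates eEF1A at its amino terminus and at a lysine, stood at 32.2 then 35.8 in dKO and 26.6 then 34.7 in WT. Neither pair of groups overlapped after normalization, but each had 1 difference under 0.25 (0.089 in number 1 and 0.27 in number 2 for Eef2kmt, 0.29 in number 1 and 0.041 in number 2 for Eef1aknmt). No other probe of either gene was higher in both numbers. With Eef1akmt1, 3 of the 4 tested genes were higher in dKO without overlap (75%, beside 12.7% of all features). Eef2k, the kinase that inhibits eEF2, was near the floor, at 13.3 then 18.2 in dKO and 9.16 then 16.4 in WT, and Eef1akmt2 was at the floor.

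Among the regulators of the cap-binding protein, Eif4ebp1 was higher in dKO. Of 4 such genes on the array 3 were tested, with a median difference of 0.25. Of the 3, 1 was consistently higher (33.3%, beside 9.35% of all features) and 0 lower. Eif4ebp1 encodes the 4E-binding protein that mTORC1 releases from eIF4E (chromosome 8, 27260327 to 27275656). Its intensity was 68.3 then 171 in dKO and 39.8 then 108 in WT. It was higher in dKO within each number, by 0.80 and 0.65, while dKO 1 lay below WT 2, so that the groups overlapped. On the normalized scale it was at 6.74 ± 0.71 for dKO against 6.02 ± 0.82 for WT (SD, n = 2 per group). Limma with the replicate block gave an adjusted p of 0.352 for a difference of 0.73. The difference was 0.149 without WT 1 and 1.297 without WT 2. Its paralogue Eif4ebp2 stood at 133 then 194 in dKO and 134 then 210.4 in WT with differences of −0.019 in number 1 and −0.11 in number 2. Eif4ebp3 was at the floor on all arrays. Eif4enif1, the shuttling protein 4E-T that binds eIF4E, stood at 401 then 259.9 in dKO and 313 then 237 in WT, and it differed by 0.37 in number 1 and 0.13 in number 2, although its other probe gave 0.070 in number 1 and −0.34 in number 2.

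By the brightest probe, the cap complex held 1 consistently higher gene, Eif4e3, and 1 consistently lower, Eif4b, of 9 tested, but the other probe of Eif4b was higher. These shares of 11.1% each stand beside 9.35% and 8.60% of all features. The group had a median difference of −0.089. Eif4e3 (chromosome 6, 99621879 to 99692873) had an intensity of 109.9 then 226 in dKO and 75.7 then 101 in WT, higher in dKO within each number. On the normalized scale it was at 7.29 ± 0.50 for dKO against 6.45 ± 0.077 for WT (SD, n = 2 per group), without overlap. The difference was 0.84, with 0.54 in number 1 and 1.14 in number 2. It was 0.49 without dKO 2 and 1.20 without dKO 1. It did not pass in limma with the replicate block (adjusted p = 0.338). A second probe gave 0.54 in number 1 and 1.07 in number 2, and the remaining one was below the floor on 3 of the 4 arrays. Eif4e, the main cap-binding protein, had 1 probe, which exceeded the floor on dKO 2 alone (16.5), so its level was not measured. Eif4e2, a cap-binding repressor, stood at 317 then 505 in dKO and 364 then 563 in WT and differed by −0.20 in number 1 and −0.15 in number 2. A second probe of Eif4e2 gave 0.49 in number 1 and −0.079 in number 2. The remaining one, near the floor, gave −0.15 in number 1 and −0.093 in number 2.

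Eif4b, the cofactor of the helicase eIF4A (chromosome 15, 102073773 to 102097173), had an intensity of 43.4 then 27.2 in dKO and 57.0 then 48.6 in WT. The dKO value lay below the WT value within each number, and the normalized values of the groups overlapped. This probe gave −0.41 in number 1 and −0.81 in number 2 (limma with the replicate block, adjusted p = 0.430). Its difference was −0.16 without dKO 2 and −1.07 without dKO 1, and −0.15 with the mean of both probes. The other probe of Eif4b was higher by 0.46 in number 1 and 0.18 in number 2, so the direction depends on the probe and no direction is given for the gene. The brightest probes of the helicase genes differed by less. Eif4a1 stood at 2053 then 2683 in dKO and 2151 then 2721 in WT, a difference of −0.046 with a 95% interval of −0.36 to 0.27 in the blocked limma fit. Its second probe was lower in both numbers, with −0.20 in number 1 and −0.79 in number 2. The paralogue Eif4a2 differed by 0.15 in number 1 and 0.15 in number 2. Its other probes above the floor had opposite signs in the numbers, with −0.066 then 0.041, and 0.070 then −0.18. Eif4a3, the helicase of the exon junction complex, had an intensity of 419.7 then 754 in dKO and 471 then 903 in WT and differed by −0.17 in number 1 and −0.26 in number 2. Eif4h, an eIF4A cofactor, differed by −0.11 in number 1 and −0.065 in number 2. Eif4g2, a scaffold that lacks the eIF4E site, differed by 0.10 in number 1 and −0.41 in number 2. A second probe of Eif4g2 gave −0.16 in number 1 and −0.24 in number 2, and the remaining one was near the floor. Eif4g3 and the oocyte form Eif4e1b were at the floor.

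**Figure D3:**
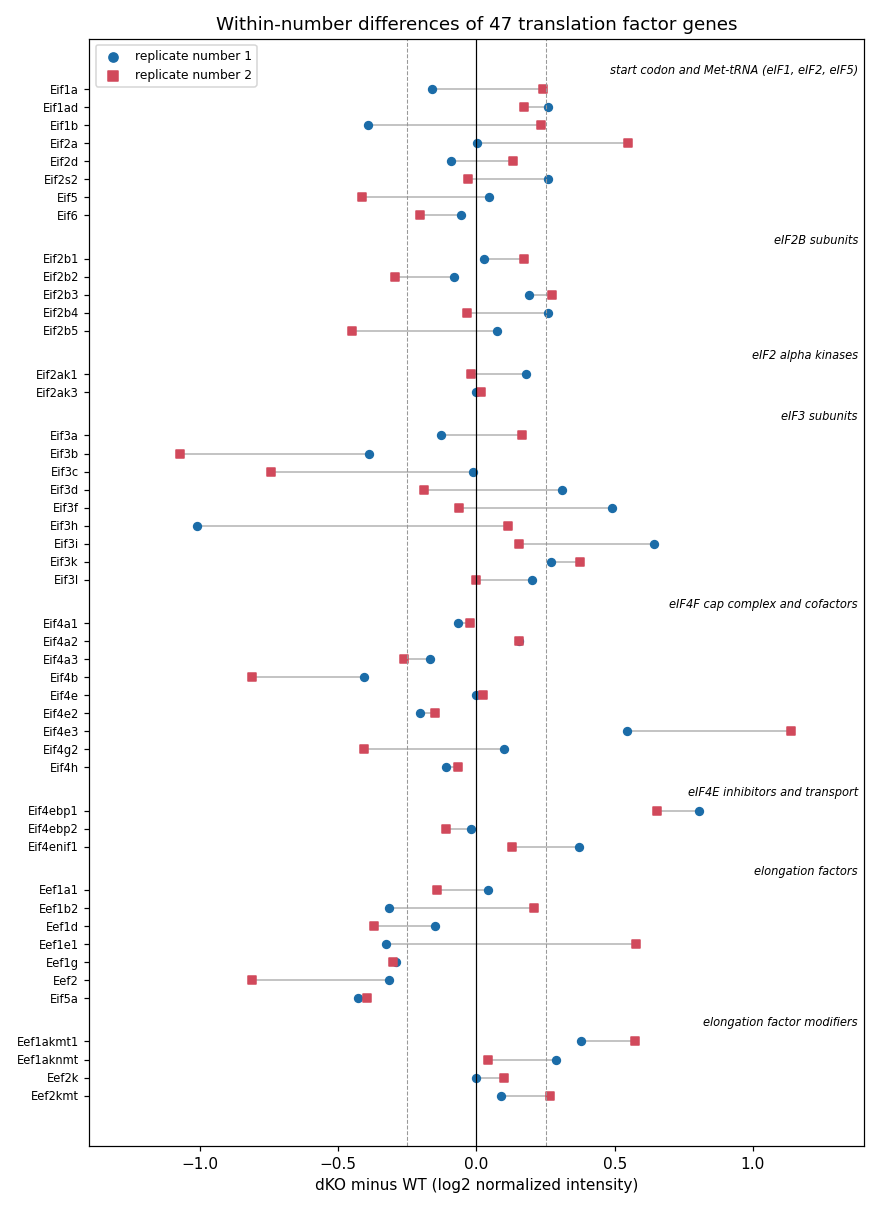
Dots and squares give the dKO minus WT difference in replicate numbers 1 and 2 (log2 normalized intensity) for the 47 tested genes, grouped by role, with a grey line between the pair and dashed lines at −0.25 and 0.25. Eef2, Eif5a, Eef1g, Eif3b and Eif4b have both symbols left of the lower line, and Eif4e3, Eif4ebp1, Eef1akmt1 and Eif3k both right of the upper one.

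Subunits of eIF3, the large complex that holds the small ribosomal subunit and the mRNA, did not share a direction. Of 9 tested, 1 was consistently higher and 1 lower (11.1% each, beside 9.35% and 8.60% of all features). The median difference was 0.060. Eif3b (chromosome 5, 140419305 to 140443358) had an intensity of 221 then 158 in dKO and 286 then 340.2 in WT. On the normalized scale both dKO arrays lay below both WT arrays, and the difference was −0.73 (−0.39 in number 1 and −1.07 in number 2) with an adjusted p of 0.352 in limma with the replicate block. It was −0.31 without dKO 2 and −1.16 without dKO 1. Eif3k, a peripheral subunit (chromosome 7, 28971372 to 28981890), had an intensity of 427 then 922 in dKO and 356 then 709.8 in WT. It was higher in dKO by 0.27 in number 1 and 0.38 in number 2, although dKO 1 lay below WT 2. Without the dKO 2 array its difference was −0.0083. Limma with the replicate block, on all 4 arrays, gave an adjusted p of 0.440. Its second probe was near the floor.

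Eif3i, a partner of Eif3b in the complex, stood at 4297 then 4699 in dKO and 2769.7 then 4218 in WT. Its dKO arrays lay above its WT arrays, by 0.64 and 0.15, and a second probe gave 0.32 in number 1 and 0.13 in number 2, but the remaining probe gave −0.46 in number 1 and −0.22 in number 2, so the probes of Eif3i disagree in direction. Eif3c, a core subunit, stood at 176 then 136 in dKO and 178 then 230.2 in WT. Its lower value rested on number 2 (−0.011 in number 1 and −0.74 in number 2), and its other probe gave 0.17 in number 1 and 0.14 in number 2. The core subunit Eif3a differed by −0.13 in number 1 and 0.16 in number 2. Eif3d, which can bind the cap, differed by 0.31 in number 1 and −0.19 in number 2. On the brightest probe, none of the other 3 subunits had 1 sign in both numbers. Eif3f differed by 0.49 in number 1 and −0.062 in number 2, and Eif3h by −1.01 in number 1 and 0.11 in number 2. The dKO 1 intensity of Eif3h was 16.2, just above the floor. With the floor at 32 its difference over the 4 arrays was 0.056 in place of −0.45. Eif3l differed by 0.20 in number 1 and 0.0 in number 2, while its other probe gave −0.10 in number 1 and −0.30 in number 2. The other probe of Eif3f gave 0.13 in number 1 and 0.19 in number 2. Eif3e, Eif3j1 and Eif3m were at the floor.

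**Figure D4:**
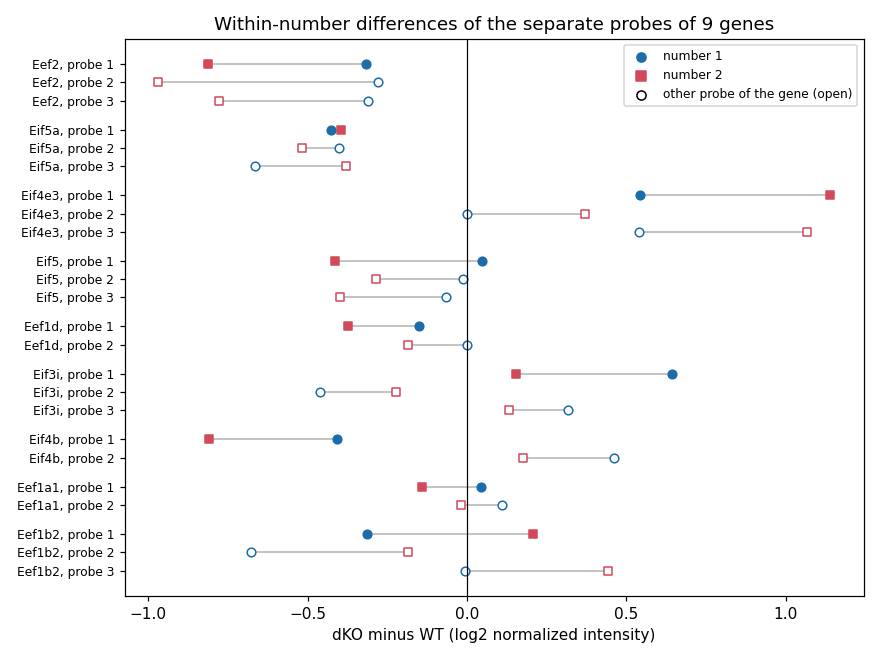
Differences (dKO minus WT, log2 normalized intensity) of each probe above the floor for 9 genes, with circles for replicate number 1 and squares for number 2, filled for the representative probe and open for the others. All probes of Eef2 and Eif5a lie left of 0 in both numbers, whereas those of Eif3i, Eif4b and Eef1b2 lie on both sides.

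Factors of start codon choice and of initiator tRNA gave no consistent difference. Of 8 tested, 0 were consistently higher or lower, and their differences ran from −0.18 to 0.28. Eif2a, a factor for initiator tRNA delivery apart from eIF2, stood at 613 then 815 in dKO and 611 then 554 in WT, higher in dKO in number 2 alone (0.0034 in number 1 and 0.55 in number 2). Eif1ad, an eIF1A-domain protein, stood at 206 then 362 in dKO and 173 then 319.6 in WT and differed by 0.26 in number 1 and 0.17 in number 2, while a second probe gave −0.23 in number 1 and −0.63 in number 2. Eif5, the GTPase activator of eIF2, stood at 1672 then 2117 in dKO and 1622 then 2856 in WT and differed by 0.047 in number 1 and −0.42 in number 2. Its other probes were lower in both numbers, with −0.013 in number 1 and −0.29 in number 2, and −0.066 in number 1 and −0.40 in number 2. Eif6, which keeps the ribosomal subunits apart, stood at 615 then 955 in dKO and 642 then 1103 in WT and differed by −0.057 in number 1 and −0.21 in number 2. In both genes the groups overlapped. Eif2s2, the beta subunit of eIF2, differed by 0.26 in number 1 and −0.029 in number 2 on its brightest probe. Its other probe gave −0.035 in number 1 and −0.21 in number 2. The brightest probes of the remaining genes had opposite signs in the 2 numbers as well. Eif2d, which can deliver tRNA to the ribosome, differed by −0.093 in number 1 and 0.13 in number 2. Eif1b, a close relative of the start codon factor eIF1, differed by −0.39 in number 1 and 0.23 in number 2, and the scanning factor Eif1a by −0.16 in number 1 and 0.24 in number 2. The X-linked Eif1ax and the subunit-joining GTPase Eif5b were at the floor.

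The brightest probes of the exchange factor eIF2B and of the kinases of eIF2 gave no consistent difference either. Eif2b5, the catalytic epsilon subunit, stood at 361 then 413 in dKO and 344 then 571 in WT on its brightest probe. That probe was lower in number 2 alone (0.073 in number 1 and −0.45 in number 2). A second probe of Eif2b5 gave −0.10 in number 1 and −0.49 in number 2, and the remaining one 0.38 in number 1 and −0.59 in number 2. Eif2b2, the beta subunit, stood at 194 then 214 in dKO and 205 then 264 in WT, with differences of −0.083 and −0.30 and no overlap after normalization. Eif2b3, the gamma subunit, stood at 70.6 then 134 in dKO and 62.1 then 110.3 in WT and differed by 0.19 in number 1 and 0.27 in number 2. Eif2b4, the delta subunit, stood at 363 then 472 in dKO and 306 then 484 in WT and differed by 0.26 in number 1 and −0.035 in number 2. The alpha subunit Eif2b1 differed by 0.025 in number 1 and 0.17 in number 2 on its brightest probe, while its other probe gave 0.35 in number 1 and 0.66 in number 2, at least 0.25 in each. With the mean of its probes the difference of Eif2b1 was 0.30 in place of 0.10. Over the 5 subunits the differences ran from −0.19 to 0.23. The haem-regulated kinase Eif2ak1 stood at 107 then 145 in dKO and 94.7 then 148 in WT and differed by 0.18 in number 1 and −0.019 in number 2. Eif2ak3, the kinase PERK, exceeded the floor on dKO 2 alone (16.4), and Eif2ak4, the amino acid sensor GCN2, was at the floor. Among the left-out sex-linked genes, Eif2s3x, the X-linked gene of eIF2 gamma, had an intensity of 235 then 173 in dKO and 300.5 then 323 in WT. Its Y-linked copy Eif2s3y stood at 235 then 377 in dKO and 4.04 then 1.57 in WT.

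Promoter sequence was looked at for the 5 consistent genes with an entry in the RefSeq promoter table of GRCm38.p6. They were taken because their brightest probes met the rule in both numbers, although the other probe of Eif4b was higher in dKO. The motif searched was CACGTG, the E-box that MYC and MAX are known to bind, which reads the same on both strands, in the 250 bases before and 50 after each listed start. It was chosen after the values were seen. The 100 bases before the start are printed 5′ to 3′ on the gene's strand with the E-box in capitals.
Eef2 (chr10:81176531-81176630, plus strand): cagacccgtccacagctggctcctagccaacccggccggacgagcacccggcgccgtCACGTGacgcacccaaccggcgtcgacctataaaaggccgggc
Eif5a (chr11:69921387-69921486, minus strand): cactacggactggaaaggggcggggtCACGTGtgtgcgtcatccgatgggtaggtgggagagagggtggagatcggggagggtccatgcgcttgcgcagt
Eif3k (chr7:28981889-28981988, minus strand): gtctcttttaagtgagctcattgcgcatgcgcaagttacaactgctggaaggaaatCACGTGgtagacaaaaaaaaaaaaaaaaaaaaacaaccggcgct
Eif3b (chr5:140419205-140419304, plus strand): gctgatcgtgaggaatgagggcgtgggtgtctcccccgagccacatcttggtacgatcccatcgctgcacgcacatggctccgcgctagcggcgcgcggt
Eif4b (chr15:102073673-102073772, plus strand): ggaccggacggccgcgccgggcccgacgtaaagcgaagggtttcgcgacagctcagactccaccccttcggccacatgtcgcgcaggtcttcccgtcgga
The E-box lay 43 bases before the start in Eef2, 44 in Eif3k and 74 in Eif5a, where 6 starts are listed and 3 hold the motif (the first of these is shown). Eif3b and Eif4b hold no such letters in their windows. Of the 36 tested members with an entry, 11 (30.6%) held the motif in at least 1 listed window, beside 12.2% of 6799 tested genes and 8.09% of 27025 genes in the table. A gene with several listed starts has more windows that can hold the motif, and these shares were not adjusted for that. Of the 3 consistent genes that held it, Eef2 and Eif5a were lower in dKO and Eif3k higher. Neither binding of MYC nor its part in these values was tested.

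Other genes of the pathway were taken from lists that hold no member and were chosen with earlier results of these data known. In the mTORC1 and MNK list 14 of 16 were tested, 0 passed in limma, 4 were consistently lower (28.6%, beside 8.60% of all features) and 0 higher, with a median of −0.088. Of these 4, Tsc1 and Myc had dKO values under the floor, which were set to it. Tsc1, an inhibitor of mTORC1, stood at 15.9 then 20.1 in dKO and 24.7 then 27.1 in WT and differed by −0.41 in number 2, while in number 1 its dKO value was under the floor. Myc, a transcription factor that raises ribosome and translation factor genes, stood at 15.7 then 9.27 in dKO and 21.3 then 21.97 in WT. Both dKO values of Myc were under the floor, so no size is given for its difference. Mtor, the kinase, differed by −0.36 in number 1 and −0.68 in number 2. Akt1s1, also among the 4, differed by −0.37 in number 1 and −0.43 in number 2. Rps6, a ribosomal protein phosphorylated downstream of Mtor, is not among the 4. It differed by −0.73 in number 1 and −0.24 in number 2, the second short of the rule.

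In the list of integrated stress response outputs, 9 of 11 were tested, with 1 consistently higher and 1 lower. These are 11.1% each, beside 9.35% and 8.60% of all features. Asns, asparagine synthetase, a target of ATF4, stood at 39.5 then 89.5 in dKO and 20.2 then 36.3 in WT and differed by 1.00 in number 1 and 1.27 in number 2. Ddit3, the transcription factor CHOP, differed in the other direction, by −0.63 in number 1 and −0.81 in number 2 (119.6 then 116 in dKO and 184 then 206 in WT). Neither passed in limma with the replicate block (adjusted p = 0.248 and 0.310). Impact, an inhibitor of GCN2, differed by 0.77 in number 1 and −0.073 in number 2, and Ppp1r15a, which directs the dephosphorylation of eIF2, by −0.21 in number 1 and −0.35 in number 2. The genes of hypusine and diphthamide synthesis, which modify eIF5A and eEF2, had 7 of 12 tested. Of these, 2 were consistently lower (28.6%, beside 8.60% of all features) and 0 higher. Srm, spermidine synthase, which makes the donor for hypusine, differed by −0.65 in number 1 and −0.55 in number 2, and Dph1, an enzyme of diphthamide synthesis, by −0.32 in number 1 and −0.35 in number 2. Odc1, ornithine decarboxylase, differed by 0.97 in number 1 and −0.013 in number 2 and Dph3 by −0.12 in number 1 and −0.13 in number 2.

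Termination, recycling and rescue genes had 12 of 13 tested, with 1 consistently higher (8.33%, beside 9.35% of all features) and 0 lower. The higher gene was Denr, a reinitiation factor (0.25 in number 1 and 0.63 in number 2). Gtpbp1 differed by −0.24 in number 1 and −0.50 in number 2. The recycling factor Abce1 differed by 0.41 in number 1 and 0.075 in number 2, and the ubiquitin ligase Ltn1 by −0.11 in number 1 and 0.74 in number 2. Poly(A) and cap accessory genes had 9 of 12 tested and 0 consistent in either direction. Ncbp2 of the nuclear cap-binding complex differed by 0.61 in number 1 and 0.19 in number 2. Paip2, an inhibitor of poly(A)-binding protein, differed by 0.24 in number 1 and 0.50 in number 2, and Paip1, its partner in stimulating translation, by −1.05 in number 1 and −0.20 in number 2. Pabpc4 differed by −0.20 in number 1 and −0.28 in number 2. Aminoacyl-tRNA synthetases and their scaffolds had 20 of 22 tested. Of these, 1 was consistently higher (5%) and 3 lower (15%), beside 9.35% and 8.60% of all features. Among the 3 were Vars (−0.55 in number 1 and −0.26 in number 2) and Qars (−0.32 in number 1 and −0.45 in number 2). The scaffold Aimp2 differed by −0.50 in number 1 and −0.20 in number 2, and Farsa, at the floor on both arrays of number 1, by 0.53 in number 2. Mitochondrial translation factors had 10 of 11 tested. Of these, 1 was consistently higher (10%) and 2 lower (20%), beside 9.35% and 8.60% of all features. The higher gene was the elongation factor Gfm1 (0.40 in number 1 and 0.34 in number 2). Mtif3 was among the 2 lower (−0.39 in number 1 and −0.27 in number 2). Tufm differed by −0.12 in number 1 and −0.19 in number 2 and Mrrf by −0.20 in number 1 and −0.21 in number 2. Limma called 0 genes of these lists, with or without the block.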

How the data were processed

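The deposited intensity of each probe is linear and includes values below 0, so a background had been subtracted. The authors' software and settings are not given in the sources used here. Sorted intensities of the dKO and WT arrays of a number differed by at most 0.0846 (number 1) and 0.0793 (number 2), against 6979 between numbers. The non-normalized table was left out, because none of its 8 columns is named as a sample. Values under 16 were set to 16 before log2 and quantile normalization. Of 45281 probes, 14673 exceeded the floor on at least 1 array. They gave 8285 named genes, each by its probe of highest mean, and 2128 unnamed probes, 10413 features in all. Between 70.8% and 71.8% of probes lay at or below the floor on an array, and the number of arrays limits the precision. By Entrez ID, RefSeq (GRCm38.p6) held 34807 of 34885 probes with 1 symbol, and 0 symbols differed; 18 probes have several symbols and 10378 none.

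Genotype was tested with limma 3.58.1 under R 4.3.3, as a two-sided moderated test with a trended prior variance, 2 residual degrees of freedom and Benjamini-Hochberg adjusted p under 0.05 over all features. A blocked fit (replicate number, 1 residual degree of freedom) is given too, since arrays of a number were normalized together and deviate together (correlation 0.47). The labels name no pairing. The fits were tested on simulated data. Every member may be named. Values on each array are given for Map3k3, for members consistent in both numbers and for up to 4 members of each role group by blocked p, and each other list gives up to 4 genes by unadjusted p. Akt1s1 is given besides these, because it was consistently lower. Outside this rule, values on each array are also given for Eef1a1 and Eif4a1 and for the sex-linked Eif2s3x and Eif2s3y. Marker genes are named beside their counts. The members and lists were chosen with earlier results of these data known.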

Additional observations from a re-analysis of the deposited data

How the results depend on the processing

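Members called by limma numbered 0 higher and 0 lower in all 15 alternative settings. Over all features the replicate block called 10 higher and 5 lower, and the block without a quantile step, an alternative chosen after seeing the data, 19 and 12. Without a block, medians equalized called 3 and 1, log2(intensity + 16) 3 and 1, and no filter 57 and 39, where most residual variances were exactly 0. The replicate block changed no member's call. Leaving out an array leaves a lone one, whose spread is taken from the other group, and mixes genotype with replicate number. Consistency and overlap have no value there. With an array left out, 0 to 0 genes were called in either direction, the members' median ran from −0.0075 to 0.031, and the difference of Eif3k ran from −0.0083 to 0.65 (below 0 without dKO 2, adjusted p = 0.9989 by limma). Of 108 values of the 9 consistent members under alternatives this was the 1 with another sign, and of 568 single-gene values 45 had one. Consistently higher members numbered 6 at floor 8, where 53 members were tested, and 3 with the mean of probes. Of 26 members with more than 1 probe above the floor, 10 had all probes on 1 side. For all of these the cause was not tested. Of the 47 tested members 44 exceeded the floor on all 4 arrays, and for the others the floor sets part of the difference.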
